A study of Mus musculus with 12 samples.

Results

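Tsku, Adgrg2, Ntrk2 and Gprc5b, 1 gene of a secreted protein and 3 genes of cell-surface receptors, were followed in mouse liver on a control diet and on diets with 1% or 5% of a VLCPUFA oil. They are 4 of the 49398 genes in the deposited gene table and were found there by Ensembl identifier (ENSMUSG00000049580, ENSMUSG00000031298, ENSMUSG00000055254 and ENSMUSG00000008734). They were chosen by their messenger RNA levels in these same livers, for large changes with the oil or in the response to it, so every comparison of diets for these genes is a description here and carries no test. The same holds for their diet comparisons within a sex and for their sex comparisons, within a diet or over all diets. All 4 passed the filter on low counts, with 8963 estimated reads for Tsku, 567 for Adgrg2, 697 for Ntrk2 and 1214 for Gprc5b over all livers.

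The livers came from wild-type C57BL/6J mice of both sexes, 9 months old at the start, that ate AIN-93G, a purified rodent chow, for 8 weeks. The chow held no added oil (control), 1% or 5% by weight of a VLCPUFA concentrate oil; VLCPUFA are very-long-chain polyunsaturated fatty acids, with longer carbon chains than the common dietary polyunsaturated fatty acids. All mice had fasted for 5 hours. Each diet had 4 livers, 2 from females and 2 from males, whereas the study's own account speaks of 6 per diet; only these 12 were analysed. The control livers were N979 and N980 (female) with N967 and N968 (male). Those of the 1% diet were N983 and N984 (female) with N971 and N972 (male), and those of the 5% diet N987 and N988 (female) with N975 and N976 (male). Library totals were 5291385 to 15674130 estimated reads over the 12 livers. Sex-linked transcripts matched the sex label of each library.

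Tsku encodes Tsukushi, a small leucine-rich protein that hepatocytes secrete and that acts on TGF-β, BMP and Wnt signalling; in mice it has been tied to cholesterol handling and energy expenditure. Ntrk2 encodes TrkB, the receptor of brain-derived neurotrophic factor, which in neurons signals through an intracellular tyrosine kinase. Splicing also yields a short TrkB that reaches the membrane without the kinase. Adgrg2 encodes an adhesion G protein-coupled receptor best known from the epididymis, and Gprc5b an orphan receptor of the class C group of G protein-coupled receptors.

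Tsku, Adgrg2 and Ntrk2 had mean levels in the order of the dose, the first pair upward and Ntrk2 downward. Gprc5b did not: its mean was lowest at 1%, and its livers at 5% and control overlapped. The name "dose-graded" thus fits 3 of the 4 genes over all livers; 30.9% of the 13814 genes tested had means in dose order, upward or downward. Within females alone Gprc5b also had means in dose order. Within males alone Tsku did not, as its mean was lower at 1% than in control. Adgrg2 and Ntrk2 had means in dose order in each sex.

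**Figure D1:**
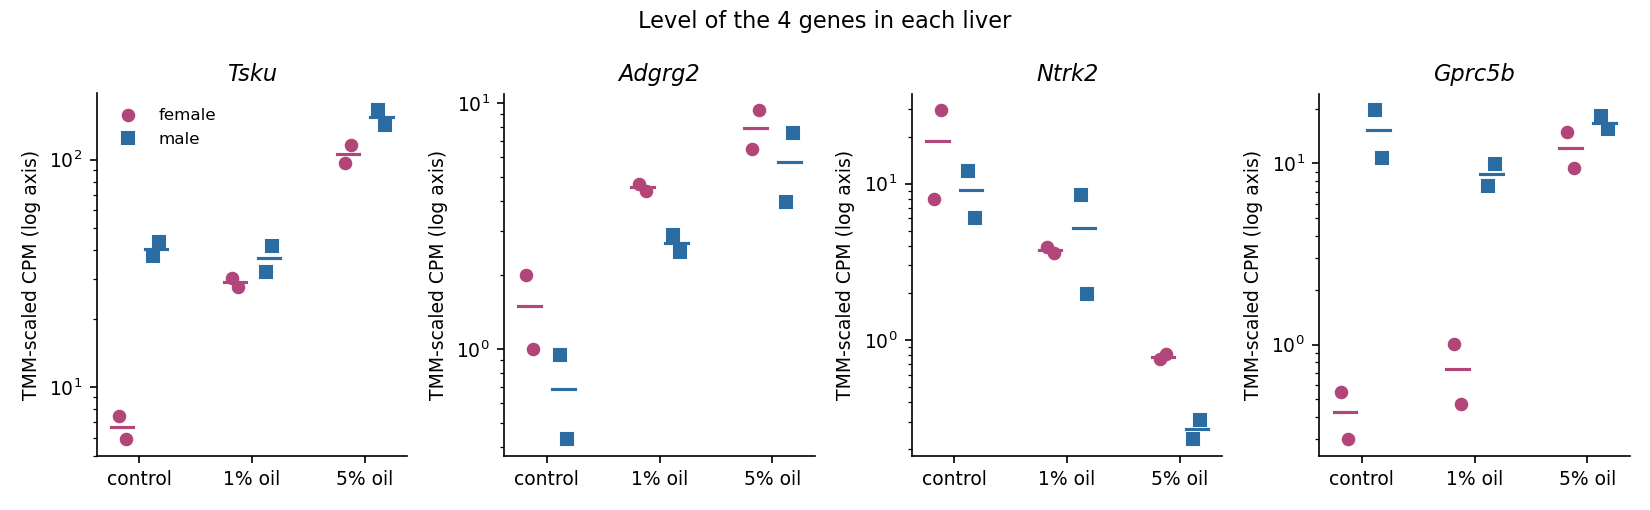
Levels of the 4 genes in each liver as TMM-scaled CPM on a log axis, by diet, with females as circles, males as squares and a bar at each mean of 2 livers. Tsku and Adgrg2 are highest and Ntrk2 lowest at 5%, while Gprc5b is low in the control and 1% females and high in all other livers.

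Tsku, the secreted protein, was measured at 7.43 and 5.90 CPM (the usual count unit relative to the library total, with totals adjusted by the TMM method) in control females, 30.2 and 27.6 CPM in 1% females and 96.2 and 116 CPM in 5% females. In males it was at 37.6 and 43.5 CPM on the control diet, 31.9 and 41.6 CPM at 1% and 165 and 142 CPM at 5%. Every 5% liver lay above every control and every 1% liver, and the control females stood below all others. The diet means were 23.6 ± 19.7 CPM in control, 32.8 ± 6.11 CPM at 1% and 130 ± 30.1 CPM at 5% (SD, n = 4 each). The log2 fold change was 2.76 ± 0.40 for 5% against control (± SE here and below, from the fit with sex as a further term), 0.80 ± 0.39 for 1% against control and 1.96 ± 0.38 for 5% against 1%. The value at 1% rested on the control females: it was 0.45 without N980 and 0.53 without N979. These are levels in whole tissue, where fewer cells of a type and less RNA per cell cannot be told apart.

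The sexes reached the 5% level of Tsku from different starting points. In females the log2 fold change was 2.13 ± 0.25 for 1% and 4.0 ± 0.26 for 5%, both against control. In males it was -0.14 ± 0.23 for 1% and 1.92 ± 0.23 for 5%. Female minus male, the response differed by 2.27 ± 0.34 at 1% and 2.08 ± 0.33 at 5%. Females stood below males by a log2 difference of -2.62 ± 0.25 on the control diet, -0.35 ± 0.23 at 1% and -0.53 ± 0.22 at 5%. Over all 13814 genes, edgeR's quasi-likelihood test called 0 sex differences in response at either dose (0% of genes), with 645 genes at an unadjusted p below 0.05 for 5% and 517 for 1%. Both counts are below a share of 0.05 of the genes, the share that would pass with no difference in any gene.

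Adgrg2, the adhesion receptor, was a gene of few reads, with 4 to 11 in each control liver, 25 to 61 at 1% and 34 to 127 at 5%. Its level in females was 1.99 and 1.00 CPM in control, 4.69 and 4.37 CPM at 1% and 6.50 and 9.35 CPM at 5%. In males it was 0.940 and 0.430 CPM in control, 2.90 and 2.47 CPM at 1% and 3.94 and 7.56 CPM at 5%. All 1% and all 5% livers stood above all controls, whereas the 5% and 1% livers overlapped through the 5% male N975. The diet means were 1.09 ± 0.654 CPM in control, 3.61 ± 1.09 CPM at 1% and 6.84 ± 2.26 CPM at 5% (SD, n = 4 each). The log2 fold change was 2.76 ± 0.34 for 5% against control, 1.80 ± 0.35 for 1% against control and 0.96 ± 0.29 for 5% against 1%.

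For Adgrg2 the responses of the sexes lay within their errors of each other. At 5% the log2 fold change against control was 2.46 ± 0.48 in females and 3.13 ± 0.54 in males, and at 1% it was 1.66 ± 0.49 in females and 2.02 ± 0.55 in males. The female minus male difference was -0.67 ± 0.73 at 5% and -0.36 ± 0.74 at 1%, less than its SE at both doses; with 1 liver left out it was -1.27 to -0.10 at 5% and -0.95 to 0.14 at 1%.

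Ntrk2, the TrkB gene, went the other way. Its level in females was 7.98 and 29.6 CPM in control, 3.92 and 3.59 CPM at 1% and 0.750 and 0.810 CPM at 5%. In males it was 12.1 and 6.01 CPM in control, 8.45 and 1.97 CPM at 1% and 0.232 and 0.307 CPM at 5%. All 5% livers lay below all others, and the 1% male N971 was inside the control range. The control liver N980 was more than 2 times as high as any other liver.

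The diet means of Ntrk2 were 13.9 ± 10.8 CPM in control, 4.49 ± 2.78 CPM at 1% and 0.525 ± 0.297 CPM at 5% (SD, n = 4 each). The log2 fold change was -4.66 ± 0.63 for 5% against control, -1.50 ± 0.53 for 1% against control and -3.15 ± 0.64 for 5% against 1%. Without N980 the value was -3.96 for 5% against control and -0.93 for 1% against control, and without N971 the value at 1% was -2.29. The 5% level rests on 2 to 12 reads per liver, 30 in all, against 44 to 296 reads per control liver. Within the sexes the 5% response was -4.59 ± 0.79 in females and -4.95 ± 0.92 in males, a female minus male difference of 0.36 ± 1.17. At 1% the response was -2.33 ± 0.70 in females and -0.77 ± 0.67 in males. Single livers moved these values: with 1 liver left out the female response at 1% was -2.97 to -1.06 (the end nearest 0 without N980), and the male response -2.18 (without N971) to -0.09 (without N972). The female minus male difference at 1% was -2.27 to -0.16 over the same omissions, and at 5% it was -0.29 to 1.67.

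The makeup of Ntrk2 transcripts was not part of how the genes were picked. The coding ends of a short and a full-length Ntrk2 transcript are printed to show where the receptor forms part, each from coding base 1365 on; lower case marks the shared bases and capitals the bases of each form alone, to the stop codon TAG in Ntrk2-202 and the first 37 bases in Ntrk2-201.
Ntrk2-202: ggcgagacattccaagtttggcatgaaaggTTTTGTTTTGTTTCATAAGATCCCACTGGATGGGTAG
Ntrk2-201: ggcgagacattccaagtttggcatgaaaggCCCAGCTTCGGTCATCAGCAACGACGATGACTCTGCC
The sequences are those of the GENCODE M21 transcripts, on the plus strand of build GRCm38. The own bases of the short form lie at chr13:58932024-58932060 and the first own bases of the full-length form at chr13:58985803-58985839. Both are coding exon sequence. The forms share 1394 coding bases, after which the short form adds 37 bases and ends, at 476 codons, while the full-length form adds 1072 bases that include the kinase and ends at 821 codons.

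Ntrk2 reads in these livers were assigned almost wholly to the short, kinase-less form. Over all livers 95.9% of the 697 estimated Ntrk2 reads fell on the 2 transcripts of 476 codons (exact 95% binomial interval 94.1% to 97.2%, for counting error only). The control liver N980 gave 296 of these reads. By liver the share was 86.9% to 100% in control, 90.4% to 100% at 1% and 73.9% to 100% at 5%, where N975, with 2 reads, was lowest. The full-length form of 821 codons had 0.544% (0.157% to 1.46%) and at least 0.5 of a read in 3 of 12 livers. By diet the short form held 96.3% of reads in control, 94.4% at 1% and 98.2% at 5%, where the full-length form had 0 of 30 reads, and a count of 0 allows up to 3 of the 30. Ntrk2-202 was the transcript with the most reads in 12 of 12 livers. The decrease of the gene with dose was therefore a decrease of reads on the short form, and whether the full-length form changed was not detectable at this depth.

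**Figure D2:**
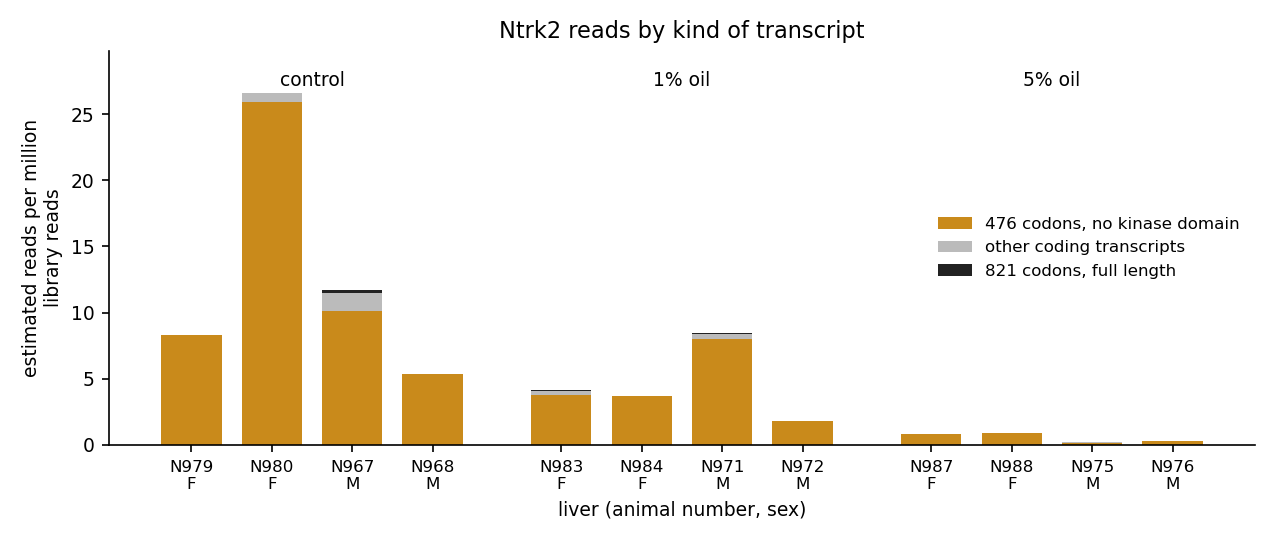
Ntrk2 reads in each liver, as estimated reads relative to the library total (CPM without TMM scaling), split by the length of the protein the transcript encodes. The 476-codon form without kinase makes up most of each bar, and the bars of the 5% livers stay below 1.

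Gprc5b, the orphan receptor, differed between the sexes on the control and 1% diets. Its level in females was 0.544 and 0.300 CPM in control, 1.00 and 0.468 CPM at 1% and 15 and 9.42 CPM at 5%. In males it was 19.7 and 10.7 CPM in control, 7.51 and 9.96 CPM at 1% and 18.2 and 15.5 CPM at 5%. The 5% females had reached the male range, and all control and 1% females were below every male. Control females rest on 3 reads each.

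For Gprc5b the diet means over both sexes were 7.83 ± 9.32 CPM in control, 4.74 ± 4.73 CPM at 1% and 14.5 ± 3.67 CPM at 5% (SD, n = 4 each) over livers of both sexes. The log2 fold change over both sexes was 1.94 ± 0.76 for 5% against control (0.89 ± 1.05 with no sex term), -0.53 ± 0.73 for 1% against control and 2.48 ± 0.76 for 5% against 1%. In females the 5% response was 4.92 ± 0.54, and in males 0.15 ± 0.36, a female minus male difference of 4.77 ± 0.66. At 1% it was 1.00 ± 0.69 in females (0.24 without N983) and -0.79 ± 0.36 in males (-0.30 without N967). The gap between females and males was -5.23 ± 0.54 on the control diet, -3.43 ± 0.47 at 1% and -0.46 ± 0.35 at 5%.

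**Figure D3:**
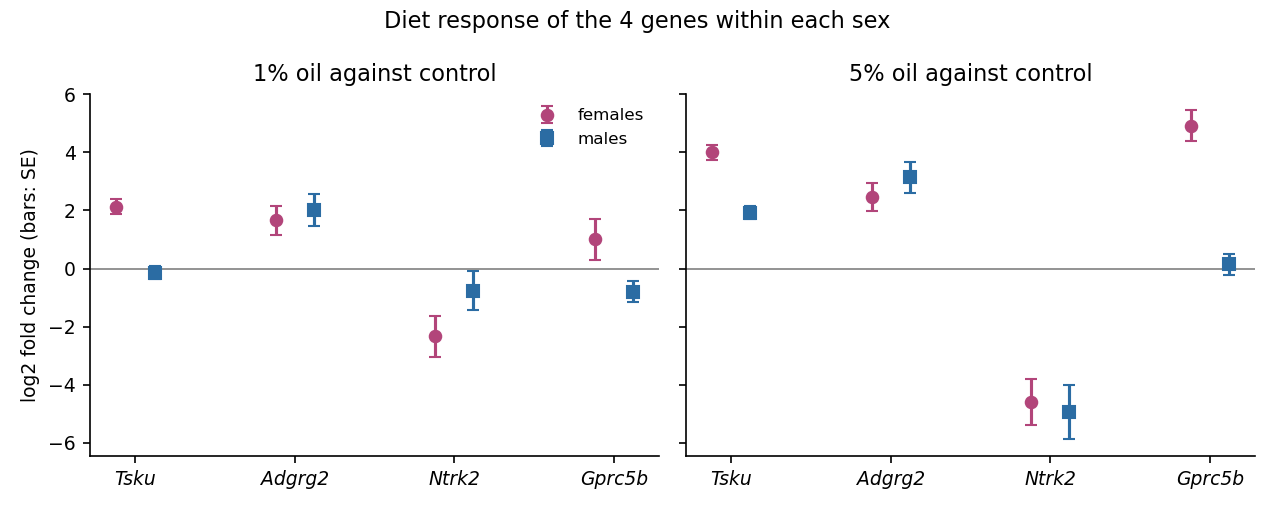
Log2 fold change of the 4 genes against control at 1% (left) and 5% (right), in females and males, with SE bars from the fit of 6 diet and sex groups. Tsku and Gprc5b have larger values in females at both doses (4.0 against 1.92 and 4.92 against 0.15 at 5%), while the bars of Adgrg2 overlap.

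By the threshold of edgeR's quasi-likelihood test (adjusted p below 0.05), 3 of the 4 genes were called at 5% against control, where 2.46% of all genes tested were called. Tsku and Adgrg2 were higher and Ntrk2 lower, and the same 3 had no overlap between 5% and control livers, against 6.08% of all genes. At 1% against control 0 of 4 were called (background 0.224%), with Adgrg2 just outside the threshold, and Adgrg2 alone had no overlap (background 3.87%). At 5% against 1% Tsku was higher and Ntrk2 lower by the same threshold (background 1.33%), and both had no overlap (background 7.65%). As these contrasts chose the genes, the calls are no test of them, and nothing is read from the counts. The authors' deposited table of 261 genes, whose contrast and direction are not named, lists Tsku (log2 fold change 2.12), Adgrg2 (2.53) and Ntrk2 (-2.93), and does not list Gprc5b.

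Levels per kilobase of transcript can be set side by side between genes. Over both sexes Tsku had the highest mean of the 4 on each diet. It was 9.17 CPM per kilobase in control, 12.8 at 1% and 50.4 at 5%. Ntrk2 was second in control at 2.23 CPM per kilobase and last at 5% with 0.0841, having 0.719 at 1%. Gprc5b had 1.78, 1.07 and 3.30 and Adgrg2 0.236, 0.782 and 1.48 CPM per kilobase in control, 1% and 5% livers. The lead of Tsku in control rested on the males. In control females Tsku had a mean of 6.67 CPM on 2575 bases and Ntrk2 18.8 CPM on 6237 bases. There Ntrk2 led per kilobase, through N980. The order of Ntrk2 and Gprc5b in control is within the spread between livers and differed by sex. Ntrk2 and Gprc5b had means of 18.8 and 0.422 CPM in control females, and 9.04 and 15.2 CPM in control males.

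Transcript makeup was simple for Tsku and Gprc5b. All 7 coding Tsku transcripts encode the same 354 codons and held 99.3% of its reads, and Gprc5b-201, of 410 codons, held 97.1% of Gprc5b reads and led in 12 of 12 livers. For Adgrg2 the assignment moved between isoforms from liver to liver: Adgrg2-205 held 42.9% of reads overall and led in 7 livers, with a share from 0% to 100% by liver. No isoform change was read from it. In the GRCm38 annotation Gprc5b (chr7:118972047-118995211, minus strand) shares 606 exon bases with the opposite-strand gene Iqck, which had 45 reads over all livers. Adgrg2 (chrX:160390690-160498070, plus strand) shares 137 with Gm15241, which had 1 read. Exons of Tsku (chr7:98350668-98361328, minus strand) and Ntrk2 (chr13:58806569-59133970, plus strand) overlap no other gene's.

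Over all diets, with diet as a further term, females and males were also set side by side. The control females that set the size of the female response are part of this comparison, so it too is a description with no test. Gprc5b had a log2 difference of -2.42 ± 0.65, females minus males, with 4 of 6 females below every male. Tsku had -1.08 ± 0.32, Adgrg2 0.69 ± 0.26 and Ntrk2 0.54 ± 0.47. With 1 liver left out, Ntrk2 was anywhere from 0.01 to 1.11.

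Further neurotrophin receptors and sortilins were read next to TrkB. Counts of calls in this and the following gene lists stand against the 2.46% of all genes called at 5% against control, and a share near it says nothing particular about a list. Of 7 listed, 3 had enough reads to test, and of those 1 rose and 0 fell at 5% against control by edgeR; the median log2 fold change of the 3 was -0.16, against 0.01 over all genes tested. Sort1, which encodes sortilin, a sorting receptor that also binds neurotrophin precursors, was at 2.72, 3.70, 4.70 and 1.72 CPM in control, 5.77, 3.44, 9.05 and 7.10 CPM at 1% and 6.62, 6.11, 13.1 and 15.8 CPM at 5%, females first. The 5% livers were above all controls, and the 5% males highest. On the log2 scale Sort1 rose by 1.59 ± 0.33 at 5% (edgeR adjusted p = 0.0213), a call lost without N976 (1.44, edgeR adjusted p = 0.0814). At 1% against control Sort1 did not pass (0.93 ± 0.33, edgeR adjusted p = 0.311).

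The other receptors tested from the list did not pass at 5%. Ngfr, the p75 receptor shared by neurotrophins, had -0.16 ± 0.29 (edgeR adjusted p = 0.874), and Sorl1, a sortilin relative, -0.52 ± 0.36 (edgeR adjusted p = 0.575). Ntrk3, the receptor of neurotrophin-3, had 37 reads over all livers and was not tested; nor were Sorcs1, Sorcs2 and Sorcs3, with 6, 25 and 3 reads. Of the 3 listed ligands of Trk receptors 2 were tested, and 0 passed at 5% by edgeR (0 at an unadjusted p below 0.05). Bdnf, the main TrkB ligand, had 70 reads and, on the log2 scale, -0.95 ± 0.58 (edgeR adjusted p = 0.503), and Ntf3 had 0.14 ± 0.67 (edgeR adjusted p = 0.964). Ntf5, which also binds TrkB, had 5 reads. Over all diets, where 1235 of 13814 genes (8.94%) passed edgeR's test of females against males, Bdnf was lower in females (-2.10 ± 0.49, edgeR adjusted p = 0.0188) and Sorl1 higher (1.16 ± 0.31, edgeR adjusted p = 0.0326). Of 16 tested transducers downstream of Trk receptors, 0 passed at 5% against control (median 0.09, 1 at an unadjusted p below 0.05).

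**Figure D4:**
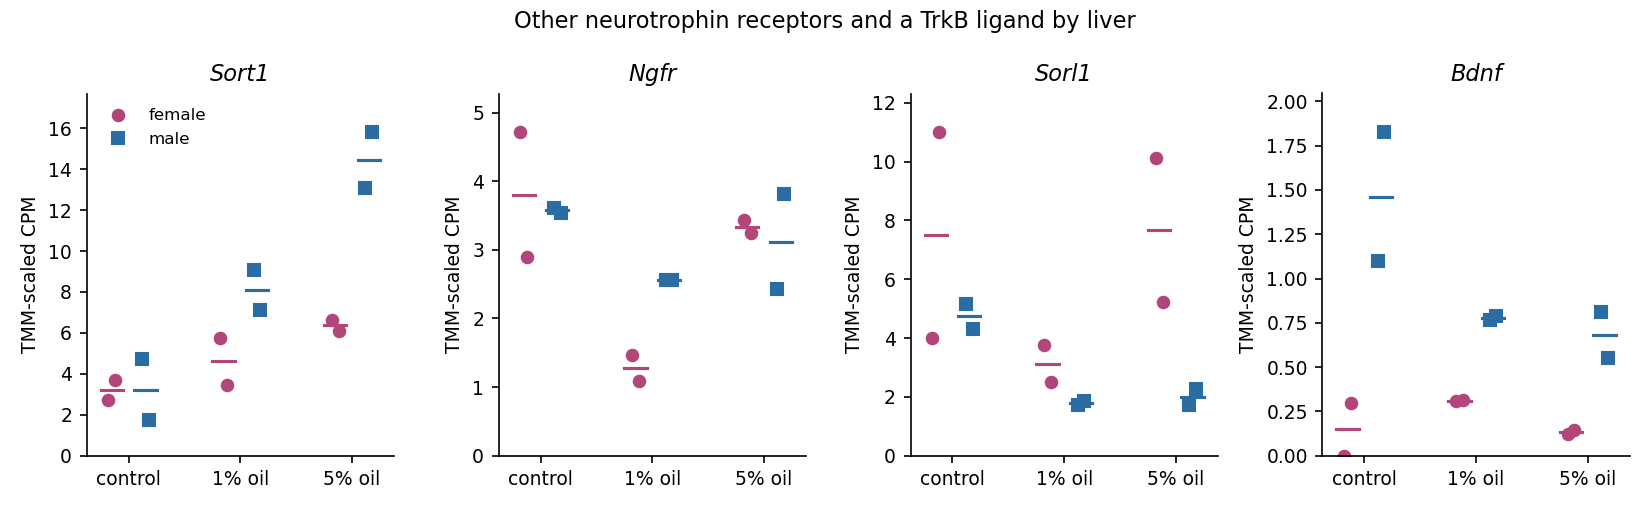
Levels of Sort1, Ngfr, Sorl1 and Bdnf in each liver as TMM-scaled CPM, by diet, with females as circles, males as squares and a bar at each mean of 2 livers. The 5% livers are above all controls for Sort1 and overlap the controls for Ngfr, Sorl1 and Bdnf.

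The relatives of Tsku were not called with it. Of 9 tested small leucine-rich proteoglycans, matrix proteins built of the same kind of repeat, 0 passed at 5% against control, and all 9 had a log2 fold change below 0 (median -0.49, 3 at an unadjusted p below 0.05). Decorin (Dcn) had -0.11 ± 0.30 (edgeR adjusted p = 0.928) and biglycan (Bgn) -0.46 ± 0.23 (edgeR adjusted p = 0.406). Of 26 tested hepatokines, hormones and carrier proteins that the liver secretes, 18 had a log2 fold change below 0 at 5% against control. An unadjusted p below 0.05 by edgeR was found for 13 of the 26. By the threshold on adjusted p, 0 rose and 1 fell (median -0.34). That gene was Lect2, a leukocyte chemotactic hepatokine, at 71.3, 87.2, 67.8 and 68.6 CPM in 5% livers against 197, 190, 116 and 188 CPM in controls, females first. Every 5% liver was below every control, and the log2 fold change stood at -1.22 ± 0.21 (edgeR adjusted p = 0.00911).

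Genes of the pathways that Tsukushi is known to act on gave 0 or 1 call in each list at 5% against control, beside 2.46% of all genes called. Of 23 tested genes of TGF-β and BMP signalling, 5 had a log2 fold change below 0 at 5%, beside 48.5% of all genes tested. An unadjusted p below 0.05 was found for 5, and 1 rose by the threshold (median 0.35). It was Smad9, a BMP signal transducer, at 6.06, 5.52, 7.41 and 9.59 CPM in 5% livers against 0.907, 1.30, 2.66 and 0.859 CPM in controls. Its log2 fold change was 2.34 ± 0.42 at 5% (edgeR adjusted p = 0.0105) and 3.04 ± 0.42 at 1% (edgeR adjusted p = 0.00752), so its larger value was at 1%. Of 21 Wnt pathway genes 0 passed (median 0.05, 4 at an unadjusted p below 0.05). Of 14 genes of cholesterol efflux and reverse transport 1 rose, Lipg, the endothelial lipase that hydrolyses HDL phospholipid (log2 fold change 1.62 ± 0.39, edgeR adjusted p = 0.0499). The Lipg call was lost without any 1 of N972, N980, N979, N968, N967, N988, N987, N976 or N975.

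Other G protein-coupled receptors were tested beside Adgrg2 and Gprc5b. Of 17 tested adhesion receptors other than Adgrg2, 0 rose and 1 fell at 5% against control (median -0.08): Adgrv1, the very large adhesion receptor of hair cells, at -1.34 ± 0.31 (edgeR adjusted p = 0.0380). That call was lost without any 1 of the 12 livers except N983 and N979. Of 4 tested class C receptors other than Gprc5b, 0 passed (median 0.27, 1 at an unadjusted p below 0.05). Gprc5c, the close relative of Gprc5b, had 52.7, 46.8, 34.5 and 46.9 CPM in 5% livers against 40.8, 39.0, 36.0 and 28.6 CPM in controls, females first, and these overlapped (0.33 ± 0.15, edgeR adjusted p = 0.345). Females against males, Gprc5c did not pass either, at 0.18 ± 0.13 (edgeR adjusted p = 0.356). In that comparison, where 8.94% of all genes were called, 1 of these 4 was lower in females, Grm8 (log2 difference -3.28). Another 1 was higher, Gabbr2 (0.65 ± 0.19, edgeR adjusted p = 0.0493). At 5% against control Gabbr2 did not pass (-0.80 ± 0.23, edgeR adjusted p = 0.0906). Of 19 G protein, arrestin and receptor kinase genes 0 passed (median 0.06, 3 at an unadjusted p below 0.05). Of 29 receptor tyrosine kinases outside the Trk family 1 rose (median 0.03), the ephrin receptor Epha1 (0.92 ± 0.21, edgeR adjusted p = 0.0337), lost without any 1 of N984, N972, N980, N979, N988, N987 or N976.

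**Figure D5:**
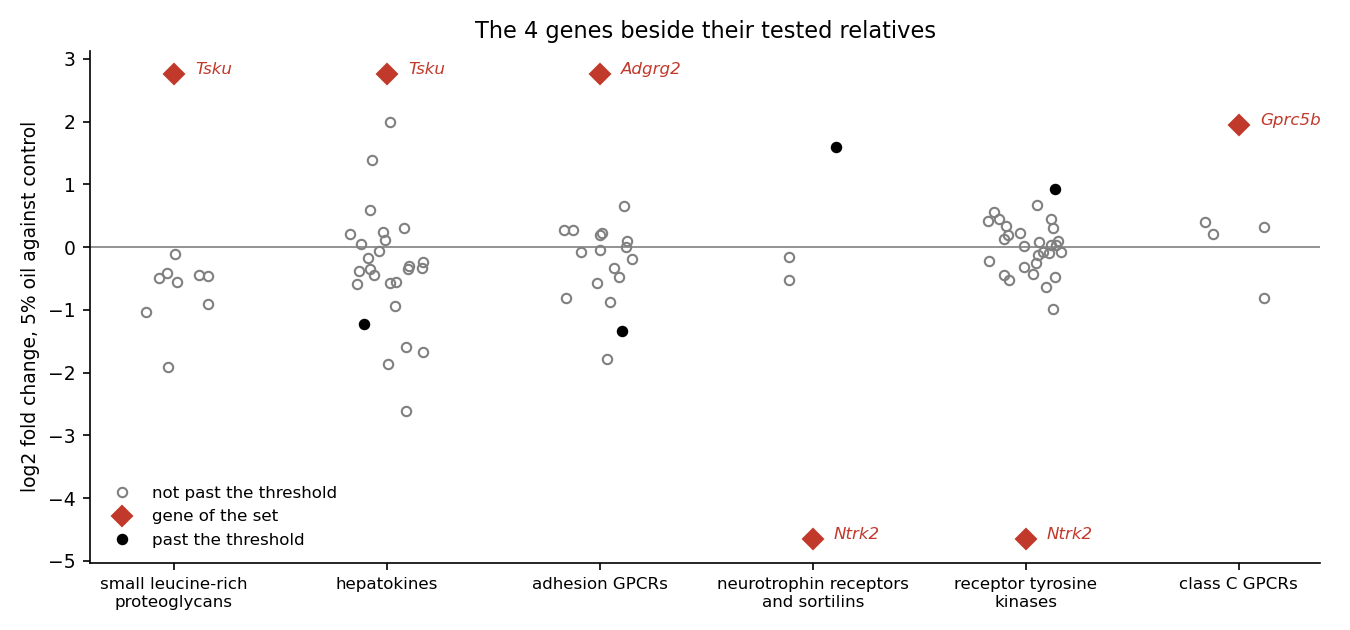
Log2 fold change at 5% against control for the 4 genes (diamonds) beside the tested genes of their families and pathways, filled where the edgeR adjusted p is below 0.05. Tsku and Adgrg2 (both 2.76) stand above, and Ntrk2 (-4.66) below, all relatives drawn in their columns. The 4 genes were picked for large changes with the oil, so their places beside these relatives are a description and no test.

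At 1% against control 0 genes of the neurotrophin, proteoglycan, hepatokine, receptor tyrosine kinase, adhesion and class C lists were called by edgeR. At 5% against 1%, where 1.33% of all genes were called, the calls in the lists above were Sos1 (higher), Celsr1 (higher) and Adgrv1 (lower). Each rested on most of the livers: the count of higher Trk transducers fell to 0 without any 1 of 8 livers (N984, N983, N972, N971, N968, N988, N987 or N976), and the counts of higher and of lower adhesion receptors fell to 0 without any 1 of 9 (the same 8 or N967).

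The genes whose level over the 12 livers was most like that of each of the 4 were found by Pearson's r of log2 CPM among 10484 genes; the livers share diet and sex, and r is a description. For Tsku they were Ephx1 (r = 0.954, rho = 0.958), the microsomal epoxide hydrolase, then Aox1 (0.912), Acsm5 (0.908) and Ss18 (0.906). For Adgrg2 they were Polr1b (r = 0.931, rho = 0.916), a subunit of RNA polymerase I, then Pex26, Dpf2 and Slc19a1 (0.925, 0.915 and 0.915). For Ntrk2 they were Mmd2 (r = 0.937, rho = 0.902), then the interferon-induced genes Ifi27 (0.906) and Ifit3 (0.901), and St5 (0.900). For Gprc5b they were Ppp2r1b (r = 0.947, rho = 0.797), a phosphatase scaffold subunit, then Ugt2b35, Gclm and Aldh5a1 (each 0.938).

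Markers of liver cell types and other gene groups were read beside these results. At 5% against control 0 genes were called in the lists of hepatocyte (12 tested), stellate cell (13), cholangiocyte (7), Kupffer cell (13), sinusoidal endothelial (12), lymphocyte and neutrophil (9), and neural (3) markers. Many of these genes still had a log2 fold change below 0 at 5%: 13 of 13 Kupffer cell, 11 of 12 sinusoidal endothelial, 11 of 13 stellate cell, 10 of 12 hepatocyte and 6 of 7 cholangiocyte markers, against 48.5% of all genes tested, and 4 of 9 lymphocyte and neutrophil and 1 of 3 neural markers. The summed CPM of the 15 stellate cell and fibroblast markers was 349 to 395 at 5% and 414 to 566 in control, without overlap. At 1% this sum was 329 to 452, which overlapped both. The sum of the 13 Kupffer cell markers overlapped between 5% and control, at 199 to 517 and 409 to 802. So did those of the hepatocyte markers (102992 to 125573 and 114693 to 198747) and sinusoidal endothelial markers (202 to 283 and 234 to 389). The summed CPM of the 12 neural and Schwann cell markers, of which Sox10 and Th had 0 reads, was 7.69 to 13.3 at 5% and 7.40 to 10.7 in control. Of 12 pancreas, adipose and muscle markers, 5 of them without a read, Cfd alone was tested; it encodes adipsin, a complement factor made by adipocytes. Cfd did not pass at 5% (2.15 ± 0.75, edgeR adjusted p = 0.183) and was lower in females than in males (-6.50 ± 0.69, edgeR adjusted p = 0.000131). The summed CPM of that list was 0.442 to 21.8 at 5% and 0.300 to 4.40 in control. Of 29 NRF2 targets, among them Ephx1 and Aox1, 14 rose and 0 fell at 5%, with a summed CPM of 15047 to 20111 at 5% and 6383 to 10374 in control. Of 32 PPARα targets 13 rose and 1 fell, and of 22 circadian clock genes 8 rose and 4 fell. The log2 fold changes of the 22 clock genes ran from -3.31 to 5.36 (median 0.48). Cry1, a clock repressor, was among those that fell (-1.83 ± 0.26, edgeR adjusted p = 0.00282). The labels give no hour of collection. The share of noncoding reads was 0.676% to 1.24% at 5% and 0.646% to 1.63% in control. Their part in the levels of the 4 genes was not tested.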

How the data were processed

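Liver messenger RNA of 12 mice was sequenced from stranded poly(A) libraries. The authors deposited estimated counts per gene and per transcript; kallisto, edgeR and limma are named in the submitters' processing notes, without versions or roles, with build GRCm39. The authors also deposited CPM for 11339 genes, used as an alternative, and a table with a log2 fold change, p-value and adjusted p-value for 261 genes. That deposited table also holds a CPM-like signal per library, whose making the authors do not describe and which was not used here. Whether counting used strand is not given in the sources used here.

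Estimated counts were rounded and fitted with edgeR 4.0.16 (R 4.3.3). The filterByExpr rule over 6 diet and sex groups left 13814 genes. Library sizes were corrected by TMM, and the robust quasi-likelihood model held diet and sex as terms (common biological coefficient of variation 0.266). All 12 livers entered each fit. A fit of the 6 groups gave responses within a sex. A test of females against males was planned for the 4 genes; their values are given without it, since the livers that set it also set the responses they were picked for. P-values are 2-sided and Benjamini-Hochberg adjusted over all genes tested, threshold 0.05; each SE is the absolute log2 fold change divided by the root of the F statistic. In simulated counts with 200 changed genes the 5% against control test recovered 96.0% of changes of 2 and 100% of changes of 3 log2 units, with 12 false calls of 207. Every simulated gene had the same common coefficient of variation. These shares therefore do not describe genes that vary more between livers.

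Identifiers were matched to symbols for 48845 genes and not for 553. Transcripts, coding lengths and coordinates come from GENCODE M21 on GRCm38, which is not the authors' build; sequences were read from its spliced transcripts by transcript identifier. Of 48897 genes in both tables, 99.3% had a gene count within 1 read of their transcript sum. Genes were named by a rule: the 4 genes, the listed neurotrophin ligands and receptors, and of each list up to 3 called genes by smallest p, or the 2 with most reads where 0 were called, plus the 4 genes most alike to each. Sos1, Celsr1, Grm8, Sorl1 and Bdnf in further contrasts, and Gm15241 and Iqck, are named outside it. Some genes of these pathways are not reported here. The 4 genes and all lists were chosen with earlier results of these data known.

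Animals are numbered singly, so replicates are separate mice. Alternatives were RLE and upper quartile scaling, no filter, at least 50 reads in 4 livers, DESeq2 1.42.0, limma 3.58.1 (voom, and trend on deposited CPM with a pseudocount of 0.5), transcript sums, no covariate, and each liver left out.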

Additional observations from a re-analysis of the deposited data

Results flagged for a closer look

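Gprc5b at 1% stood out because the livers of the sexes lay on opposite sides of their control means, with a smaller gap between females and males than on the control diet. The 1% females (1.00 and 0.468 CPM) lay above the control female mean of 0.422 CPM, and the 1% males (7.51 and 9.96 CPM) lay below the control male mean of 15.2 CPM. The 1% and control females still overlapped, as N984 (0.468 CPM) was below the control female N979 (0.544 CPM), each with 3 reads. The female minus male difference in the log2 response was 1.80. The difference was not tested, because the gene had been picked for its response, and the female levels rest on few reads. Within the diets, 0 of 12 sets of 4 livers held a liver farther from the rest than Dixon's 95% limit allows; the nearest was Ntrk2 in control, through N980, with a gap of 0.743 of the range. Each set pools 2 females and 2 males. Where the sexes lay apart, as for Tsku and Gprc5b in control, a single liver could hardly reach the limit, so nothing is read from those sets.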

How the results depend on the processing

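No direction of a reported result that was called turned round under the alternatives tried. Ntrk2 on the deposited CPM, where a pseudocount of 0.5 damps low values, had -3.48 for 5% against control and -2.13 for 5% against 1%. Leaving out each liver gave, for 5% against control, 2.41 to 3.07 for Tsku, 2.51 to 3.06 for Adgrg2, -4.90 to -3.96 for Ntrk2 and 1.40 to 2.69 for Gprc5b. Gprc5b was also 0.89 with no sex term and 1.24 with limma voom, against 1.94. At 1% against control, where the 4 genes were not called, the values were 0.45 to 1.11 for Tsku (0.47 with no sex term), -2.29 to -0.93 for Ntrk2 and -0.85 to 0.13 for Gprc5b.

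For females against males, the Tsku difference (-1.08) was -0.70 without the diet term and -1.25 to -0.83 with a liver left out. That of Gprc5b (-2.42) was -3.03 with DESeq2, -1.67 with limma voom, -1.51 without the diet term and -3.06 to -1.99 with a liver left out. The cause was not tested.

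The count for 5% against control (340) was 1011 with no filter, 749 with DESeq2, 107 with no sex term and 138 to 479 with a liver left out. At 1% (31) it was 649, 266, 10 and 13 to 184, with 50 under the stricter filter and 54 on deposited CPM. At 5% against 1% (184) it was 1276, 699, 8 and 13 to 597, with 280 on deposited CPM. For the dose trend (308) it was 1108, 733, 124 and 80 to 424. For females against males (1235) it was 2375, 2079, 719 (no diet term) and 594 to 2356.

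With only transcripts of at least 20 reads, 100% of Ntrk2 reads were on the 476-codon form, since the full-length transcripts fell out. No paired analysis was possible because the groups compared share no replicate number. Depth limits Ntrk2 at 5%, Adgrg2 in control and Gprc5b in control females, and 2 livers per sex and diet limit every within-sex value.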
